A study of Bos taurus with 8 samples.

Results

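The genes described here belong to the class II antigen presentation pathway of cattle. They code for the peptide-binding chains of bovine leukocyte antigen (BoLA) DQ and DR (BOLA-DQA5, BOLA-DQB, BOLA-DQB1, BOLA-DRA and BOLA-DRB3), the peptide-exchange chains of DM (BOLA-DMA and BOLA-DMB), the invariant chain CD74, the protease cathepsin S (CTSS) and the thiol reductase IFI30. Members were the array probes whose RefSeq accession belonged to any of these 10 genes. This gave 22 of the 43653 probes of the array and 8 of the 12639 genes that its probes could be named for, and no probe accession mapped to BOLA-DRB3 or BOLA-DMA. The RNA came from neutrophils isolated from jugular vein blood of female, periparturient Holstein Friesian cows, with no treatment named. A before-calving group was sampled at day -14 relative to the expected calving date and an after-calving group at day 7 relative to the actual date, with 4 arrays each. The series text speaks of 3 cows, and the labels do not say which cow gave which array, so some of the 4 arrays at each time must share an animal or its material. P-values therefore measure the spread between these arrays, which may be technical. They come out too small where arrays of 1 time share a cow and too large where the times do, and neither kind of sharing could be modelled.

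Class II molecules are pairs of an alpha and a beta chain that carry peptides of engulfed protein to the cell surface for CD4 T cells. In the endoplasmic reticulum CD74 fills their groove. In endosomes cathepsin S cuts CD74 down, IFI30 opens disulphide bonds of the antigens, and DM swaps the remaining CD74 fragment for a peptide. B cells, dendritic cells and monocytes carry the pathway at high levels, whereas resting blood neutrophils are known for little or none of it. In the reference gene order BOLA-DQB, BOLA-DQA5, BOLA-DQB1, BOLA-DRB3 and BOLA-DRA follow each other with at most 5 protein-coding genes between any pair. BOLA-DMA and BOLA-DMB are neighbours on the same chromosome, with 250 protein-coding genes between BOLA-DMB and BOLA-DRA. BOLA chains resemble each other, and a probe may bind transcripts of more than 1 of them.

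Signal was low throughout. Between 0.887% and 10.3% of probes were well above background, a call that the extraction software makes for each spot from its signal and the error of its background. Replicate 4 was the dimmest array of each time point, with 761 such probes before calving and 387 after, against 2201 to 4486 on the other 6 arrays. On before-calving replicate 3 the software had applied a multiplicative surface correction to the processed signal (root mean square of its fit 1.83, against 0 on the other arrays). All 4 arrays of a time point lay on 1 slide and each slide held 1 time point, and thus an effect of slide cannot be told apart from one of time. Detection also depended on where a probe was spotted. With the probes split into 4 bands of nearly equal number by distance to the edge of the spotted area, 30.9% of the outermost band were well above background on at least 1 array. In the next bands inwards it was 22.3%, 8.40% and 5.42%.

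Of the 22 class II probes, 11 were well above background on at least 1 array and 11 on none. Before calving, replicates 1 to 4 showed 10, 7, 10 and 7 class II probes above background. After calving they showed 8, 8, 9 and 0. Before-calving replicate 4 thus showed as many of them as the much brighter replicate 2, while after-calving replicate 4 showed none. The other 11 probes stayed between -14.7 and 19.1 units of background-subtracted intensity over the 8 arrays. Their processed signal on before-calving replicate 3 nevertheless ran from 14.1 to 213, where the background-subtracted values were -11.5 to 3.28. For these probes the surface-corrected signal of that array shows no level. Detected probes differed there as well. BOLA-DQB probe A_73_P052096 read 338 processed against 1608 background-subtracted, and CD74 probe A_73_P106621 went the other way, at 198 against 120.

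**Figure D1:**
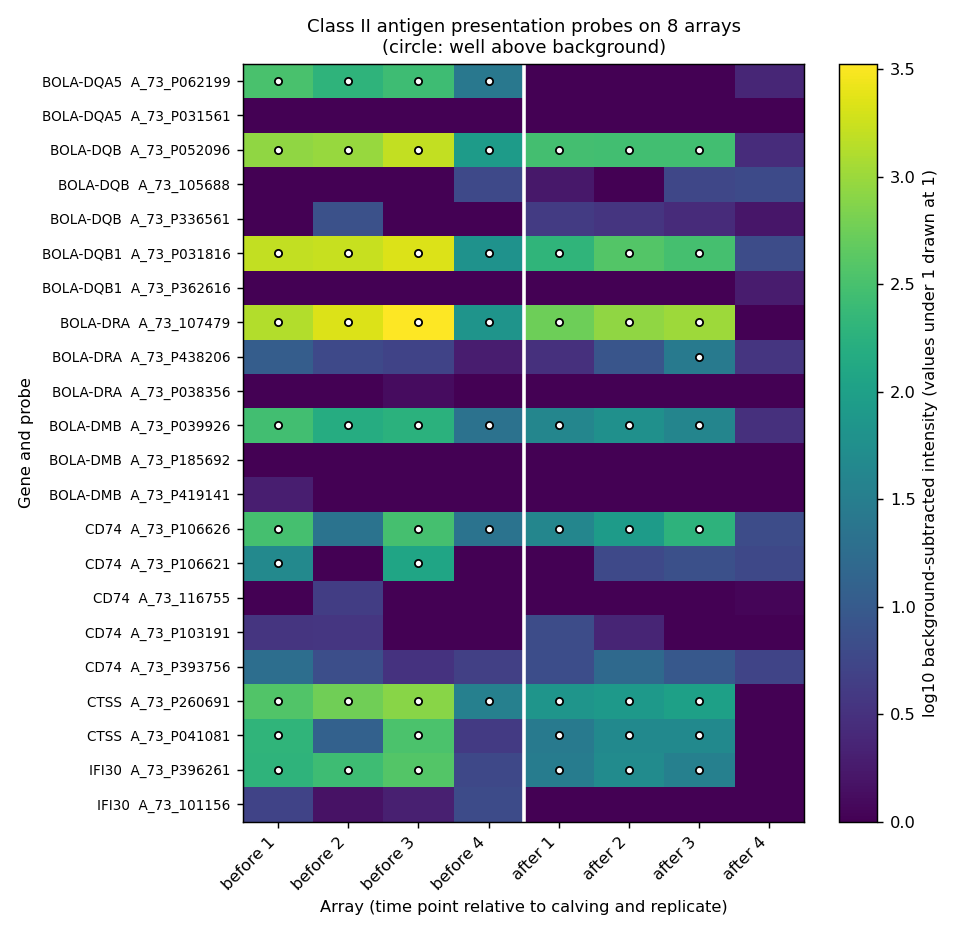
Background-subtracted intensity (log10, values under 1 drawn at 1) of the 22 class II probes, in rows, on the 4 before-calving and 4 after-calving arrays, in columns. Circles mark probes well above background; the BOLA-DQA5 probe A_73_P062199 is marked on all 4 before-calving arrays and on no after-calving array.

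The detected and the undetected probes were separated by their place on the array. The 11 detected probes lay 0.00354 to 0.723 mm from the nearest edge of the spotted area, and the 11 undetected ones 0.767 to 1.55 mm. All 7 class II probes of the outermost band and all 3 of the next were detected, against 1 of 8 in the third band and 0 of 4 in the innermost. Every one of the 8 genes with a probe had at least 1 detected probe, and 7 of them also had an undetected one (CTSS was detected by both of its probes). An undetected probe of these genes is therefore no sign that the transcript is absent.

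**Figure D2:**
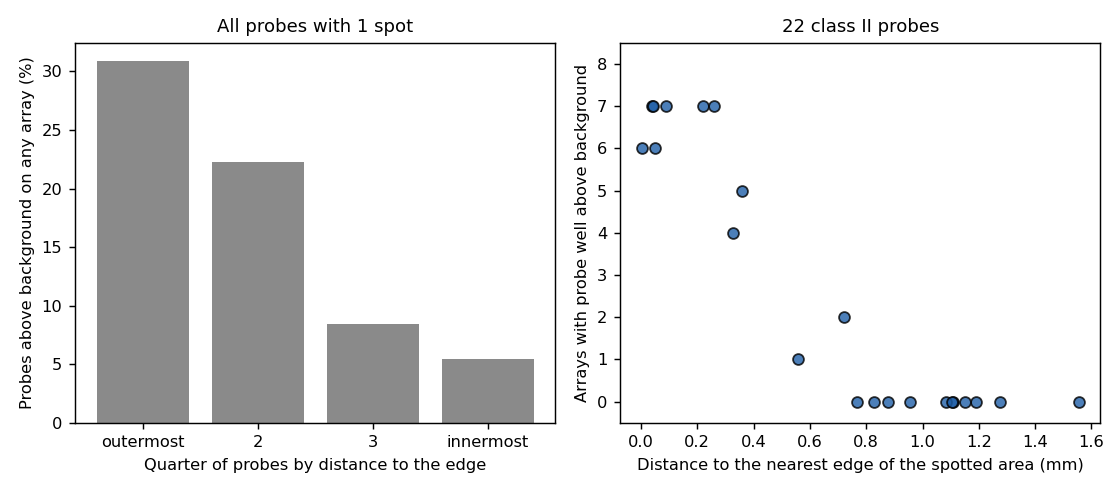
Left, percentage of all probes with 1 spot that were well above background on any array, in 4 bands of distance to the edge of the spotted area. Right, number of arrays on which each of the 22 class II probes was well above background (vertical) against its distance to the edge in mm (horizontal); the 11 probes from 0.767 mm inwards are at 0.

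On all 8 arrays the processed signal was set against the 75th percentile of the 115 probes detected on every array. On the 6 brighter arrays (replicates 1 to 3 of each time point) the background-subtracted signal was set against the 75th percentile of the 1091 probes detected on all 6, and raised to a common floor at a scaled log2 level of -3.54. A probe was tested where it was well above background on every array of at least 1 time point. This admitted 6 class II probes of 475 on 8 arrays and 9 of 2225 on 6 arrays, and a probe admitted through 1 time point alone had to be high there. On 8 arrays all 6 class II probes were admitted through the before-calving arrays alone. On 6 arrays BOLA-DQA5 was admitted through the before-calving arrays alone, and CD74 and the CTSS probe A_73_P041081 through the after-calving arrays alone. A difference below is a log2 level after minus before calving, tested with limma. In bulk RNA, fewer cells of a type and less RNA per cell cannot be told apart.

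On the 6 brighter arrays 3 of the 9 tested class II probes fell after calving and none rose, and on all 8 arrays none of 6 passed. Those that fell were BOLA-DQA5 (difference of -2.56, with every after-calving array at the floor), BOLA-DQB1 (-1.93) and IFI30 (-2.14). For BOLA-DQA5 the filter alone favoured a lower level after calving. Among all 2225 probes 5.03% passed in either direction and 3.19% fell (n = 3 arrays at each time). An unadjusted p under 0.05 was reached by 6 of the 9, all lower, against 20.6% of all probes (12.1% lower). The difference was negative in 8 of the 9, against 54.2% of all probes, with a median of -1.40 against -0.05. On 8 arrays, where 0% of 475 probes passed, the 6 differences were negative, with a median of -1.27 (59.4% of all probes negative, median -0.20). That sign is favoured by a filter that all 6 passed through the before-calving arrays, and nothing is read from it. With limma 7 of the 475 (1.47%) had an unadjusted p under 0.05, 0.632% of the 475 lower, and BOLA-DQA5 was the 1 class II probe among them. These counts and medians describe probes that had passed the filter.

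These calls rested on few arrays. Without after-calving replicate 2 or without after-calving replicate 3, 0 class II probes passed, without after-calving replicate 1 it was 1, without before-calving replicate 3 it was 2, and without before-calving replicate 1 or 2 it was 4. Of all probes 112 passed on the 6 arrays. Leaving out an after-calving array gave 56 (replicate 1), 7 (replicate 2) or 4 (replicate 3), and leaving out a before-calving array gave 121 (replicate 1), 167 (replicate 2) or 69 (replicate 3). Of the 6 fits with an array left out, BOLA-DQA5 passed in 4, IFI30 in 2 and BOLA-DQB1 in 1. The differences themselves moved less: with each array left out in turn, BOLA-DQA5 lay between -2.77 and -2.46, BOLA-DQB1 between -2.12 and -1.74 and IFI30 between -2.47 and -1.91.

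BOLA-DQA5 codes for a DQ alpha chain, one side of the peptide groove. Its detected probe, A_73_P062199, read 326, 198, 273 and 25.9 units of background-subtracted intensity on before-calving replicates 1 to 4. On the after-calving replicates it read -0.795, -5.35, -8.54 and 2.38. The probe was well above background on every before-calving array, the dim replicate 4 included, and on no after-calving array, so the time points did not overlap. On 8 arrays the mean level after calving was at least 3.31-fold below the mean before (fitted difference -4.05, SE 1.13, limma adjusted p = 0.434). This bound allows for no sampling error. The mean of the after-calving detection limits was -3.92, and before-calving replicate 3 lay just below it, at -3.94. With the background-subtracted signal and a common floor on the same 8 arrays, the difference was only -0.34 (limma adjusted p = 0.648). On the processed signal BOLA-DQA5 was the single probe among 475 (0.211%) whose after-calving arrays all lay below all before-calving arrays. The filter favoured that order, since the probe was admitted through the before-calving arrays alone, and nothing is read from it. Its closest scaled levels were -3.94 on before-calving replicate 3 and -4.10 on after-calving replicate 4. The latter was the lowest processed value of that array, which 79.4% of its spots shared. On the 6 brighter arrays the fall was at least 5.88-fold (log2 difference -2.56, SE 0.21, limma adjusted p = 0.00955), measured from the common floor. All after-calving arrays lay at that floor, where their spread is 0 by construction. With before-calving replicate 4 added, which raises the floor, the difference was -0.10 and did not pass. The other BOLA-DQA5 probe, A_73_P031561, 1.08 mm from the edge, was not detected on any array.

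The DQ beta chains form the other side of the groove and came with brighter probes. The detected BOLA-DQB1 probe, A_73_P031816, read 1577, 1712, 2153 and 62.8 before calving, and 202, 378, 310 and 6.52 after. The 3 brighter before-calving arrays lay above every after-calving array, and the dim arrays of each time point lay far below their group. On the scaled log2 level the 6 arrays stood at 1.53, 2.33 and 1.57 before and at -0.43, 0.047 and 0.015 after. The level was 3.81-fold lower after calving (difference -1.93, SE 0.28, limma adjusted p = 0.0319). It passed in 8 of 18 alternatives, which include the fits with an array left out. Those it did not pass include the processed signal (-1.14, limma adjusted p = 0.743) and no filter (limma adjusted p = 0.377). They also include the series matrix values (-0.16, where the median of all probes was 1.03) and before-calving replicate 4 added (-1.59). On 8 arrays the difference was -1.30 (SE 1.18) and did not pass. That fit used the processed signal, which for this probe was 339 on before-calving replicate 3, against 2153 background-subtracted. Its scaled level there was -3.13, against 0.51 and 2.21 on before-calving replicates 1 and 2. The other BOLA-DQB1 probe, A_73_P362616, was not detected.

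BOLA-DQB probe A_73_P052096 read 875, 951, 1608 and 87.3 before calving. After calving it read 295, 287, 288 and 2.84, so that 3 arrays were nearly alike and the fourth was at background. The scaled levels did not overlap on the 6 brighter arrays, where they were 0.68, 1.48 and 1.15 before and 0.12, -0.35 and -0.089 after. The difference of -1.21 (SE 0.25, limma adjusted p = 0.0677) missed the threshold. It was at -1.15 (SE 1.16) on 8 arrays and at 0.43 with the series matrix values on 6 arrays, where the median of all probes was 1.03. The other BOLA-DQB probes, A_73_P336561 and A_73_105688, were not detected.

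BOLA-DRA codes for the DR alpha chain, which pairs with the DR beta chains. Probe A_73_107479 read 1327, 2193, 3352 and 67.3 before calving and 561, 861, 1017 and -0.279 after. Raw intensities of the 3 brighter arrays did not overlap between the time points. Once scaled they did, at 1.28, 2.68 and 2.21 before and 1.05, 1.24 and 1.73 after. The difference was -0.72 (SE 0.42, 95% confidence interval -1.78 to 0.34, limma adjusted p = 0.386) on 6 arrays and -1.25 (SE 1.19) on 8. It was 0.18 with the series matrix values on 6 arrays and 0.14 with array weights on 8. Of its other probes, A_73_P438206 was detected on after-calving replicate 3 alone, at 27.9, and A_73_P038356 on none.

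**Figure D3:**
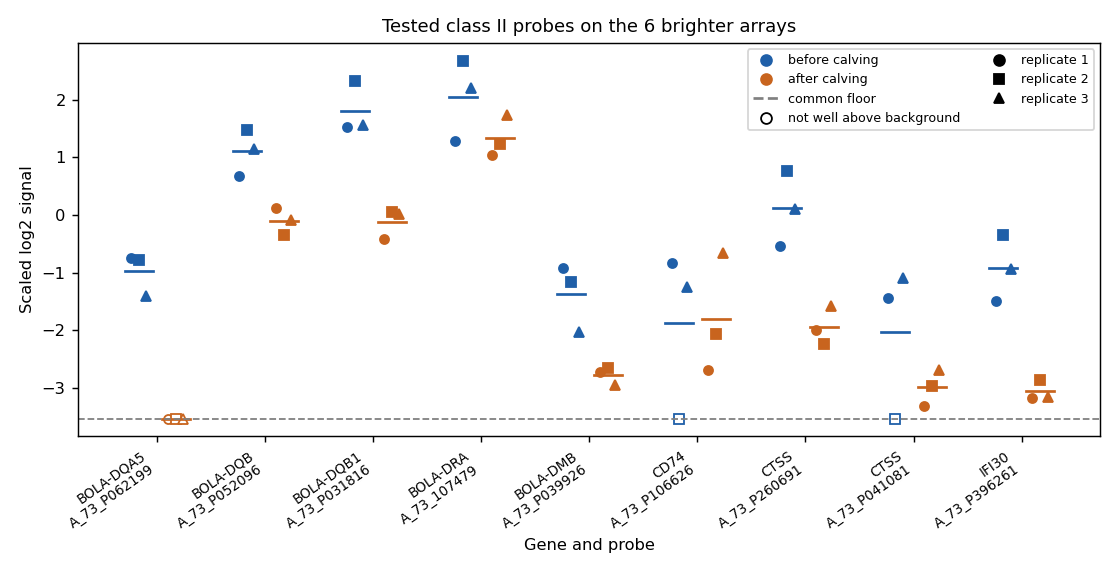
Scaled log2 signal (vertical) of the 9 tested class II probes (horizontal) on the 6 brighter arrays; blue is before and orange after calving, symbols mark replicates, horizontal bars the group means, the dashed line the common floor at -3.54, and open symbols a probe not well above background. BOLA-DQA5 lies at the floor on all 3 after-calving arrays, and CD74 and CTSS probe A_73_P041081 lie there on before-calving replicate 2.

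BOLA-DMB codes for the beta chain of DM, the peptide editor of endosomes. Its detected probe, A_73_P039926, read 288, 153, 177 and 21.3 before calving and 41.1, 58.3, 39.6 and 3.08 after. The scaled levels of the 6 brighter arrays did not overlap, at -0.92, -1.16 and -2.03 before and -2.72, -2.65 and -2.95 after. The level was 2.65-fold lower after calving, with a difference of -1.40 (SE 0.32, limma adjusted p = 0.0817) that missed the threshold. On 8 arrays the difference was -1.13 (SE 1.11). The other BOLA-DMB probes, A_73_P185692 and A_73_P419141, were not detected.

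CD74 codes for the invariant chain, the chaperone of class II molecules. Probe A_73_P106626 read 306, 22.3, 304 and 22.1 before calving and 42.0, 87.4, 193 and 6.62 after. Before-calving replicate 2 stood far below replicates 1 and 3 and was not well above background. The difference was 0.06 (SE 0.91, 95% confidence interval -2.26 to 2.39), an interval that holds the differences of BOLA-DQB and BOLA-DQB1 but not that of BOLA-DQA5. Without before-calving replicate 2 it was -0.83 (limma adjusted p = 0.618). A further CD74 probe, A_73_P106621, was detected on before-calving replicates 1 and 3 alone, at 46.0 and 120, and read at most 7.37 on the other arrays. The remaining CD74 probes, A_73_116755, A_73_P103191 and A_73_P393756, were not detected.

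CTSS was the 1 gene with both probes detected. Probe A_73_P260691 read 375, 584, 782 and 34.1 before calving and 67.9, 77.2, 102 and 0.424 after. Its scaled levels did not overlap on the 6 brighter arrays, at -0.54, 0.77 and 0.11 before and -2.00, -2.24 and -1.59 after. The 4.16-fold lower level after calving (difference -2.06, SE 0.39, limma adjusted p = 0.0530) lay just outside the threshold. On 8 arrays the difference was -1.64 (SE 1.12). Probe A_73_P041081 read 200, 12.5, 338 and 3.99 before calving and 27.3, 46.9, 47.1 and -4.05 after. Before-calving replicate 2 was again the low array, at the floor, and the difference was -0.96 (SE 0.69, limma adjusted p = 0.499). Without that array it was -1.78 and passed (limma adjusted p = 0.0315). In the series matrix this probe stood at 0.80, below the median of all probes there (1.03).

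IFI30 reduces disulphide bonds of antigens in lysosomes. Probe A_73_P396261, at 0.00354 mm from the edge, read 194, 269, 379 and 5.84 before calving and 30.2, 50.3, 34.4 and -3.13 after. Neither replicate 4 was well above background. The scaled levels of the other arrays did not overlap, at -1.49, -0.35 and -0.94 before and -3.17, -2.86 and -3.16 after. The level was 4.41-fold lower after calving (difference -2.14, SE 0.32, limma adjusted p = 0.0333). It passed in 8 of 18 alternatives, which include the fits with an array left out. Those it did not pass include normexp (-1.11, limma adjusted p = 0.0638) and the processed signal (-1.33, limma adjusted p = 0.669). They also include the series matrix values (-0.34, median of all probes 1.03) and before-calving replicate 4 added (-0.04). That last setting raises the floor and admits the probe through the after-calving arrays alone, so nothing is read from its value. The probe was not tested on 8 arrays, and its other probe, A_73_101156, was not detected.

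Compared array by array, 6 of the 9 tested probes had their 3 after-calving arrays all below their 3 before-calving arrays, against 15.1% of the 2225 probes tested. Among the 6 class II probes well above background on all 6 arrays, where the filter favours neither time point, it was 5, against 18.1% of 1091 such probes. The exceptions were BOLA-DRA, CD74 and CTSS probe A_73_P041081. The last 2 were those in which before-calving replicate 2 lay at the floor, while for BOLA-DRA, BOLA-DQB, BOLA-DQB1, CTSS probe A_73_P260691 and IFI30 the same array held the highest scaled level of the 6.

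Since detection varied with spot position, each value was also set against its neighbourhood, a comparison chosen after seeing the data. The reference was the mean log2 signal, on the same array, of the 50 nearest probes detected on all 6 arrays. These neighbours reached out to between 0.296 mm (around BOLA-DQB) and 0.850 mm (around CD74). They differed between the time points by -0.49 around CTSS probe A_73_P260691 to 0.79 around CD74. With this reference 7 of the 9 class II probes fell, against 4.4% of the 2225 probes (7.78% passed in either direction). The same 7 had all after-calving arrays below all before-calving arrays, against 16% of all probes. They include BOLA-DQA5, for which the filter favoured that order. With this reference the counts were not repeated among probes well above background on all 6 arrays. BOLA-DQA5 was at -2.28 (limma adjusted p = 0.00169), IFI30 at -1.75, CTSS probe A_73_P260691 at -1.56, BOLA-DQB1 at -1.49, BOLA-DMB at -1.25, BOLA-DRA at -1.12 and BOLA-DQB at -0.77 (limma adjusted p = 0.0492). For BOLA-DQA5, admitted through the before-calving arrays alone, every after-calving value was the common floor less its neighbours. The spread of those values came from the neighbours, so the p-value does not measure the after-calving spread of this probe. CD74, at -0.72, and CTSS probe A_73_P041081, at -0.76, did not pass. Against its neighbours CD74 thus had a negative value, and BOLA-DRA no longer overlapped between the time points.

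**Figure D4:**
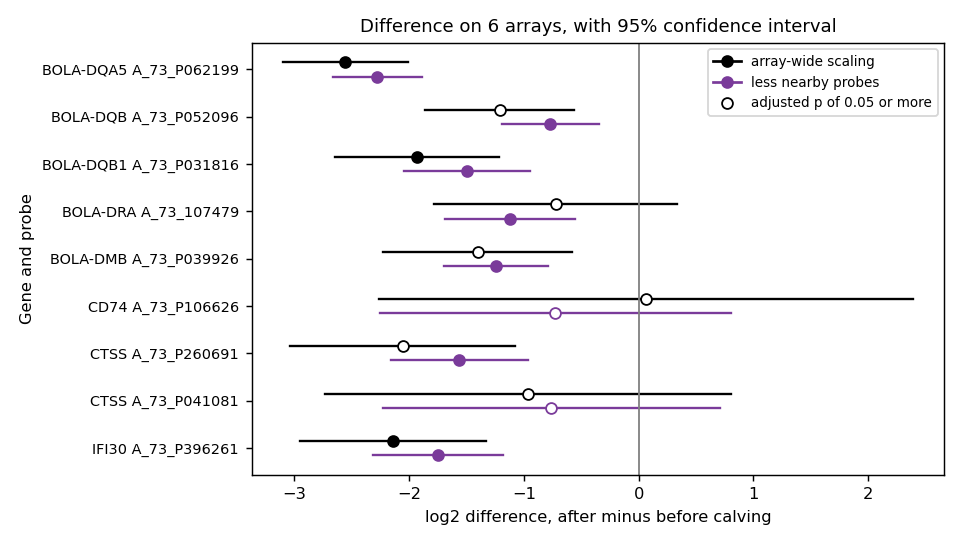
Difference in log2 level, after minus before calving, with its 95% confidence interval (horizontal) for the 9 tested class II probes (vertical) on the 6 brighter arrays; black uses the array-wide scaling and purple the 50 nearest detected probes, and filled points have an adjusted p under 0.05. In black 3 points are filled and in purple 7, and BOLA-DQA5 is farthest from 0 in both.

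Of 39 other genes of the class II pathway, 32 had a named probe and 10 were tested on the 6 brighter arrays (11 probes). Of the 11 probes 1 fell and none rose, against 3.19% lower and 5.03% in either direction over all probes, and the median difference was -0.37 against -0.05. The gene that fell was LGMN, which codes for the endosomal protease legumain (difference -1.81, SE 0.28, limma adjusted p = 0.0367). Its probe was admitted through the before-calving arrays alone, so the filter favoured a lower level after calving. The mean scaled level after calving, -3.33, lay near the floor of -3.54. The cathepsins CTSB, at -0.79 (SE 0.42), and CTSD, at -0.98 (SE 0.26), did not pass. CTSF stood at 1.25 (SE 0.30), and the 2 probes of CTSH at 0.87 and -0.90, all without passing. RFX5, a transcription factor of class II promoters, and the costimulatory receptors CD86 and CD40 were not detected by any of their probes on the 6 arrays. As with the class II probes, that is no sign that these transcripts are absent, though the spot positions of these probes were not examined. BOLA-DOA, which codes for a chain of the DM inhibitor DO, was detected on 2 before-calving and 1 after-calving array of the 6. BOLA-DOB was detected on 1 before-calving array, and CIITA, the master regulator of class II genes, had no named probe. Of 26 genes of interferon gamma signalling and response, 19 had a named probe and 3 were tested, with 1 probe each. Of these 3 probes 1 fell, against 3.19% of all probes. It was that of B2M, the light chain of class I molecules (difference -1.95, SE 0.17, limma adjusted p = 0.0118), whose other probes were not detected. STAT2, at -0.92, and the immunoproteasome gene PSMB8, at -0.97, did not pass.

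Markers of cells that carry class II were read on the same 6 arrays, as the signal summed over a list's detected probes in units of the scaling percentile. For the 14 B cell markers, 7 of them with a probe, the sum was 0.489 to 1.32 before calving and 0.609 to 0.933 after. None of 3 tested probes passed. CD79A, a chain of the B cell receptor, was at -0.41 (SE 0.48) and -0.49 (SE 0.27), and MS4A1 was detected on 1 after-calving array alone. For the 13 monocyte and macrophage markers, 11 with a probe, the sum was 0.760 to 0.974 before and 0.305 to 0.619 after. CSF1R, the receptor of macrophage colony-stimulating factor, fell (difference -1.62, SE 0.26, limma adjusted p = 0.0386), and CD14 was detected on 2 before-calving arrays and on no after-calving array. C1QB was detected on 2 arrays of each time point, and the other probes of CSF1R and CD14 on none. None of the 19 probes of 10 dendritic cell markers was detected on any of the 6 arrays. Detection depended on spot position, which was not examined for these probes, so this is no sign that these cells are absent. FLT3 had no named probe.

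Markers of other cells moved as well. For the T cell list (12 of 14 genes with a probe) the sum was 5.76 to 7.27 before and 1.46 to 1.79 after. Both CD247 probes were its brightest tested ones before calving, with mean scaled log2 levels of 0.71 and 1.23. CD3D, CD2, CD8B and CD28 were not detected by any of their probes. CD247 was lower on both of its probes, with differences of -2.77 and -2.64, and CD3E, with its after-calving arrays at the floor, stood at -2.03, all past the threshold. CD4 and LCK, the other tested genes of the list, were at -0.11 and -0.63. Of the natural killer list (9 genes) GNLY fell by 1.67, and the sum of the list went from between 0.320 and 0.514 to between 0.125 and 0.201. GNLY, like CD3E, was admitted through the before-calving arrays alone, and its after-calving arrays lay at the floor. Of 8 eosinophil markers 2 had a probe and 1 probe was detected, that of ALOX15, which fell by 3.02. The neutrophil sum went the other way, from 16.7 to 30.7 before to 78.6 to 93.9 after, and was carried by S100A12 probe A_73_P050466, whose mean scaled log2 level was 3.95 before and 6.24 after. Of the 12 tested probes of the list 5 rose, those of MMP9, S100A12, LTF and PGLYRP1, against 5.03% of all probes past the threshold in either direction. Except for S100A12 these were admitted through the after-calving arrays alone, with the before-calving arrays at the floor. CXCR1 was at -1.25 (limma adjusted p = 0.0586), CXCR2 at -0.06, the 3 probes of ITGB2 between -0.21 and 1.17, and CSF3R had no named probe. Erythroid and platelet markers summed to 0.377 to 1.24 before and 1.25 to 2.57 after, with 1 tested probe that did not pass (HBA, at 1.83). The part of T cell, natural killer cell, monocyte, eosinophil or neutrophil RNA in the class II differences was not tested.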

How the data were processed

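Neutrophil RNA was hybridised in 1 colour (Cy3) to 8 bovine Agilent arrays. Per the file headers, the deposited intensity values were written by Agilent Feature Extraction 10.10.1.1 (protocol GE1_1010_Sep10, annotation on UMD_3.1), while the submitters' processing notes name version 9.1. Each file gives background-subtracted and processed intensity side by side. The deposited series matrix holds log2 values with scale and centring unstated. Its 43711 rows were matched to probes by their order, and its differences between arrays were checked against the scanner values (lowest correlation 0.999). Its column medians lay between -0.128 and 0.0289, except -2.61 on before-calving replicate 3.

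Control spots (1417) and spots flagged as outliers were left out, so a fit drops an array where a probe was flagged there (no class II probe was), and spots of a probe were averaged. Accessions were named through RefSeq genes of ARS-UCD2.0, for 26832 of 43653 probes. Tests used limma 3.58.1 in R 4.3.3 (lmFit, eBayes, two-sided, Benjamini-Hochberg over all tested probes, threshold 0.05) and were checked on simulated data. "At least N-fold" on 8 arrays bounds every array of the time point at which the probe was not detected. For each it takes the lowest signal of any detected probe or the probe's own value, whichever is higher. The number of arrays limits the precision. Every class II probe is named, and of the other lists the genes past the threshold and a fixed set of defining genes, of which 1 is not reported here. CTSF, CTSH, STAT2, PSMB8, C1QB, CD4, LCK, CXCR1, ITGB2 and HBA were named after their values were seen. Members, lists and the 6 brighter arrays were chosen with earlier results of these data known. No sequences are shown, and coordinates were not used here. Alternatives are given in the closing section. Normexp used the median spot signal.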

Additional observations from a re-analysis of the deposited data

Results flagged for a closer look

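The spread was examined in 14 sets of values from 4 arrays, and 2 of them had a single array well apart (chance alone gives about 1 in 20). After-calving replicate 4 showed 0 of the 22 class II probes well above background, against 8 to 9 on the other after-calving arrays. On the same array BOLA-DQB probe A_73_P052096 stood at a scaled log2 signal of -4.10 on the 8-array scale, against -1.23 to -0.67 on the other 3.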

How the results depend on the processing

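On 8 arrays 0 probes passed, also with a replicate block, against 1 with no filter, 15 with array weights (1 of class II) and 0 to 1 (class II 0 to 1) with an array left out. BOLA-DQA5 was the class II probe that passed, at -5.02 with array weights and -5.06 without after-calving replicate 4. With array weights BOLA-DRA turned to 0.14. On 6 arrays 112 probes (3 of class II) passed. The counts were 62 with normexp, 50 among probes above background on all arrays, 61 with trend and robust, 12 (1) with the processed signal, 5 (0) with the series matrix, 1 (0) with no filter, 12 (0) with before-calving replicate 4 added and 173 (7) with the local reference, an alternative chosen after seeing the data. Scaling over all probes called 5 of class II, and moved the split of all calls from 41 higher and 71 lower to 15 and 99, with the median of all probes at -0.58. With an array left out the counts were 4 to 167 (class II 0 to 4). Deviations of same-numbered arrays correlated at 0.057, -0.25 and 0.26 on 6 arrays, and at 0.58, 0.22, -0.26 and 0.49 on 8. Not every pair was above 0.1, so the numbers were not taken as pairs, and whether the times share cows stays unknown. With a replicate block on 6 arrays 0 probes passed (class II 0, limma adjusted p = 0.112 for BOLA-DQA5 and 0.115 for BOLA-DQB1 and IFI30). CD74 turned to -0.53 with scaling over all probes, -0.33 with array weights, -0.72 with the local reference, -0.44 without after-calving replicate 3, -0.83 to 0.56 over all the arrays left out in turn and -0.030 with before-calving replicate 4 added. The series matrix moved the median of all probes to 1.03, and there BOLA-DRA turned to 0.18, BOLA-DQB to 0.43 and CTSS probe A_73_P041081 to 0.80, all below that median. BOLA-DQA5, BOLA-DQB1, BOLA-DMB, IFI30 and CTSS probe A_73_P260691 stayed negative under every alternative that tested them, but close to 0 under some. In the series matrix BOLA-DQB1 was at -0.16, BOLA-DMB at -0.23 and IFI30 at -0.34. With before-calving replicate 4 added, which raises the floor, BOLA-DMB was at -0.03 and IFI30 at -0.04. On 8 arrays with the background-subtracted signal and a common floor, BOLA-DQA5 was at -0.34 and BOLA-DMB at -0.12. A common floor shrinks the differences of probes near it, so these floored values do not show how large the differences are. The causes were not tested. Few probes exceed background, so levels under the floor stay unmeasured.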

Other observations

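Of the 445 probes well above background on all 4 before-calving arrays, 3 were so on no after-calving array, and no probe showed the opposite pattern, which would need detection on the dim after-calving replicate 4 (387 probes above background). Besides BOLA-DQA5, the 3 probes of the first pattern were those of TMEM63B and RAB40C, named after their values were seen. Counted on the 6 brighter arrays alone, 273 probes were above background on all 3 before-calving arrays and on no after-calving array. On the 6 brighter arrays the difference of RAB40C was -0.24 (limma adjusted p = 0.610) and TMEM63B lay at the common floor at both time points.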
